A study of Mus musculus with 6 samples.

Results

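The Agilent mouse array used for these bone marrow (BM) erythroblasts carries 16181 probes, of 55681 non-control probes, whose name is a stretch of a chromosome followed by F or R instead of a gene. They were found by that name alone. The array's own annotation describes all 16181 as lincRNA probes, F for the forward and R for the reverse strand. Each probe is 60 bases long, and together they cover 3540 named spans of mm9 with a median width of 7315.5 bases and a median of 3 probes a span. A group of 1067 spans has probes to both strands and 2473 to a single strand. Because many spans overlap, they join into 2223 separate places. The 39500 other probes served for comparison.

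CD71highTer119+ erythroblasts were sorted from BM during recovery from hemolytic anemia, and RNA of 3 P38α+/− and 3 P38α−/− mice was hybridised to 1 array each. The P38α+/− mice were Mx1-Cre/P38α fl/+ and the P38α−/− mice Mx1-Cre/P38α fl/fl, so both carried Cre and the controls also lost an allele. Mx1-Cre is driven by an interferon-responsive promoter that acts in many tissues besides erythroblasts. All were C57Bl/6 mice that received 3 injections of 300 μg PolyIC at 6 to 8 weeks of age and rested for 6 weeks, and the methods give a single phenylhydrazine (PHZ) dose of 100 mg per kg with cells taken on day 4. Amplification started from 10 ng of total RNA.

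Long intergenic non-coding RNAs (lincRNAs) are transcripts from between protein-coding genes, often spliced and polyadenylated like mRNAs and usually much scarcer. Known members include Malat1 and Neat1, which stay in the nucleus, and Tug1 and Dancr. In red cell precursors transcription is shut down progressively as the nucleus condenses, and a small number of lincRNAs are known to take part in terminal maturation.

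The probe sequences below are those that the results turn on, as the array files give them, 5′ to 3′. The first set shows span probes that share a run of bases, in capitals, with the array's probe for a named gene on the same strand, namely Rps16, a protein of the small ribosomal subunit, and Rn45s, the ribosomal RNA precursor.
chr11:22686751-22686810, reverse: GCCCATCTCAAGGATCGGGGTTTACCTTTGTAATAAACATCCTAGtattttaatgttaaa
Rps16: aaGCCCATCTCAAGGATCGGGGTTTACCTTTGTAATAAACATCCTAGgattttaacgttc
chr17:39983218-39983277, forward: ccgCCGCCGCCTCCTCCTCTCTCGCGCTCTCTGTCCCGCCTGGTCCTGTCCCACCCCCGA
Rn45s: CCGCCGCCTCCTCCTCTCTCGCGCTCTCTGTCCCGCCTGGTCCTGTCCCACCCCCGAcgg

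The next pair covers the same bases of chromosome 11 on opposite strands, with the shared bases in capitals, and shows how the F and R probes of a span relate.
chr11:22686754-22686813, forward: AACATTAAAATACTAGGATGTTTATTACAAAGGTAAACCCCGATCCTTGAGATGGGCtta
chr11:22686751-22686810, reverse: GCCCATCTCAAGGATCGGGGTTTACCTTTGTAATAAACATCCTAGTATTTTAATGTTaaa

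The span chr8:13200727-13207714 holds the probe that passed the test as higher in P38α−/− arrays. Capitals mark the 48 bases that its first probe shares with the RefSeq promoter window of the lncRNA gene 2810030D12Rik, whose sequence follows (GRCm38.p6, a later build than the array's mm9; 8:13200532-13200831, + strand).
chr8:13200784-13200843, forward: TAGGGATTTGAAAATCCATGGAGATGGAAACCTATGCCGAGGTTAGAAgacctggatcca
chr8:13200845-13200904, forward: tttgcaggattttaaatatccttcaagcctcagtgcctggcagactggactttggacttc
chr8:13200950-13201009, forward: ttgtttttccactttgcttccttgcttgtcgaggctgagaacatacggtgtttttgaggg
2810030D12Rik promoter window: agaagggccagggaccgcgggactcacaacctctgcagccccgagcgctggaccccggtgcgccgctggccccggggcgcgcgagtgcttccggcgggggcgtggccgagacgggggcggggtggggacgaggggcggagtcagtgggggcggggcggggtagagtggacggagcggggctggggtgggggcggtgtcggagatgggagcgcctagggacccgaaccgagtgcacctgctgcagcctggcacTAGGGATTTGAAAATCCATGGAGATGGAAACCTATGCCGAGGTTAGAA

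The last set holds the probe that passed the test as lower (chromosome 10), 3 of the probes with large upward differences and 3 of those with large downward differences. No base is in capitals here.
chr10:66629128-66629187, forward: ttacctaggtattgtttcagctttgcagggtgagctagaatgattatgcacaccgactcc
chr6:67098407-67098466, reverse: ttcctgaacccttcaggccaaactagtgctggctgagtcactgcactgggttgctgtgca
chr15:61919035-61919094, reverse: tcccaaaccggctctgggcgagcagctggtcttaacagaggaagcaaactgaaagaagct
chr9:65369151-65369210, reverse: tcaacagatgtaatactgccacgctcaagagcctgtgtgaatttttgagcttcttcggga
chr1:175706660-175706719, reverse: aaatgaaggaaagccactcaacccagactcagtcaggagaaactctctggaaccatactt
chr1:134881352-134881411, reverse: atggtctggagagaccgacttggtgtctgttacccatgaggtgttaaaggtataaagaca
chr11:3548516-3548575, forward: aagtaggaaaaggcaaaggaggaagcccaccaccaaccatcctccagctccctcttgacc

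All 6 arrays carried the erythroid markers, with 17 of 18 detected on all of them. Neutrophil genes were present as well: all 15 listed markers were detected on all 6 arrays, and their summed level ran from 6.82 to 8.22 on the P38α+/− and from 5.92 to 6.41 on the P38α−/− arrays, where a level is the log2 signal minus the array's 75th percentile, with none of the 15 differences above the median probe. RNA of other lineages was present too: 2 of 10 B cell, 4 of 8 T or NK cell, 4 of 9 monocyte or macrophage and 4 of 8 megakaryocyte or platelet genes on the array were detected on all 6 arrays. The summed B cell level ran from -2.58 to 0.35 on the P38α+/− and from -3.65 to -2.07 on the P38α−/− arrays (median difference of the 4 tested genes -2.84), and that of monocytes or macrophages from -0.51 to 0.77 and from -1.21 to -0.10 (8 tested, -0.97). The T or NK cell level ran from 0.25 to 1.63 and from -0.07 to 0.20 (4 tested, -0.24), and the megakaryocyte or platelet level from 1.11 to 1.58 and from 1.36 to 1.79 (4 tested, 0.28). The genotypes overlapped in these sums except for T or NK cells, and none of these genes passed the test. Of the lists' defining genes, Rag1 of B cells, Cd8a of T cells and Mrc1 of macrophages were detected on no array. P38α is encoded by Mapk14, and its 2 probes differed by 0.54 and 0.01 on the log2 scale, P38α−/− minus P38α+/−, with adjusted p of 0.185 and 0.991 by limma. Whether these probes lie in the deleted part was not established, and the arrays are named by their labels throughout. Because RNA was taken from sorted populations, fewer cells of a type and less RNA per cell cannot be told apart. The part of these lineage differences in the results below was not tested.

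Most span probes gave no signal beyond background. A probe was taken as detected where the scanner software flagged its signal as well above background. The share of span probes detected was 40.1%, 20.9% and 20.4% on the 3 P38α+/− arrays and 11.5%, 18.8% and 18.6% on the 3 P38α−/− arrays. The P38α+/− shares all lay above the P38α−/− shares, and replicate 1 of P38α+/− stood far above the rest. The means were 27.1% ± 11.2 and 16.3% ± 4.17 (SD, n = 3 each), a difference of -10.8 points (two-sided exact permutation p = 0.10, the smallest that 3 against 3 arrays allow). Without replicate 1 of P38α+/− the difference was -4.34 points.

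Other probes were detected more often on every array, at 58.4%, 45.3% and 43.6% on the P38α+/− and 35.9%, 43.0% and 41.9% on the P38α−/− arrays. Within an array the span share lay 23.0 points lower on average (two-sided exact sign-flip p = 0.03125 over 6 arrays, in 6 of 6 arrays). The gap between span and other probes averaged -22.0 points on P38α+/− and -23.9 points on P38α−/− arrays, a difference of -1.99 points (exact permutation p = 0.40). The share of spans with any detected probe was higher, from 43.0% to 73.7% on the P38α+/− and from 28.2% to 41.4% on the P38α−/− arrays.

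Across arrays, 8795 span probes (54.4%) were detected nowhere, against 37.0% of other probes, and 774 spans had no detected probe at all. Another 3567 were detected on exactly 1 array, and for 3070 of them that array was replicate 1 of P38α+/−. A core of 1666 probes (10.3%, against 34.1% of other probes) was detected on all 6 arrays, in 901 spans and 721 places.

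Detection was more frequent at higher G+C content of the probe. Of span probes with under 30% G+C, 2.76% were detected on all 6 arrays, and of those with 50% G+C or more, 19.5%, while the median was 45% both for all span probes and for those detected on all 6 arrays. Other probes went from 12.1% to 40.6% over the same bins. The polyadenylation signal AATAAA, read on the probe's own strand, stood in 3.92% of span probes and 12.6% of other probes, and its mirror TTTATT in 3.02% and 4.03%. Span probes with AATAAA were detected on all 6 arrays in 10.9% of cases and those without in 10.3%, whereas other probes were detected in 41.0% and 33.2%. These are counts of letters and say nothing of where a transcript ends.

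The label of intergenic was checked against the positions of the array's named gene probes. In 629 spans (17.8%) at least 1 named gene probe lay inside the span, for 274 of them a protein-coding gene, so those spans overlap a named gene on 1 strand or the other. A further 877 spans had the nearest such probe within 10 kb, 1633 between there and 100 kb, and 401 farther away. In that order the share of spans with a tested probe was 46.9%, 39.8%, 33.4% and 23.7%, lowest for the spans farthest from a gene probe.

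The 2 strands were compared in 1219 pairs of F and R probes that cover at least 40 common bases, of which 1216 were exact reverse complements there. Only 1 strand was detected on all 6 arrays in 226 pairs, both in 17 and neither in 976. In the 17 pairs with both strands detected the median gap in log2 signal was 3.47. In the chromosome 11 pair printed above, the reverse probe had a mean level of 5.64 and the forward probe -5.41. A probe's brightness also depends on its sequence, so such gaps are not amounts of RNA.

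Replicate 1 of P38α+/− also stood apart in this respect. Among the 1067 spans with probes to both strands, the share with both strands detected, out of those with either, was 72.6%, 41.6% and 39.3% on the P38α+/− and 24.95%, 38.2% and 36.4% on the P38α−/− arrays (exact permutation p = 0.10). The groups did not overlap, but the other 2 P38α+/− arrays were close to 2 of the P38α−/− arrays. Over all 6 arrays, 371 spans had a single strand detected throughout and 112 had both.

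Of the brightest spans with both strands detected throughout, 4 are described here, on chromosomes 5, 7, 12 and 17. For chr5:74487385-74497428, which contains the lncRNA gene Dancr, the forward probe read 1.41, 1.74 and 1.08 on the P38α+/− and 0.19, 0.84 and 0.28 on the P38α−/− arrays. The reverse probe read 0.33, 0.51 and -0.59 against -0.56, -0.70 and -0.87. The forward values did not overlap between genotypes and the reverse values did, with differences of -0.97 (adjusted p = 0.137) and -0.79 (adjusted p = 0.218) by limma. The remaining 3 spans differed by -0.59 to -0.03 on either strand, and none passed the test.

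Several of the brightest span probes lay in or beside known genes or shared bases with their probes. The brightest, in chr17:17481706-17482457, read 6.88, 6.75 and 6.66 on the P38α+/− and 7.18, 6.77 and 6.85 on the P38α−/− arrays and held AATAAA. A probe named Oaz1, for an inhibitor of polyamine synthesis, lies in the same span and strand, though the array also places Oaz1 on chromosome 10. The second, chr19:5801802-5802597, reverse, read 6.43, 6.95 and 6.92 against 6.33, 6.94 and 6.45, and its span lies 5910 bases from the nearest Malat1 probe on the same strand. The genotypes overlapped for both, at 0.17 (adjusted p = 0.610) and -0.19 (adjusted p = 0.694).

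The chromosome 11 probe that shares 45 bases with Rps16 read 5.75, 5.65 and 5.59 on the P38α+/− and 5.64, 5.61 and 5.60 on the P38α−/− arrays. The genotypes overlapped, with a difference of -0.05, and that Rps16 probe differed by -0.07. Of the 20 brightest probes, 8 had at least 65% G+C, against 1.70% of all span probes. The 20 lay in only 11 spans and 8 places. Most of those with such G+C content lay over the ribosomal RNA precursor on chromosome 17, so they are not independent. In chr14:78924115-78938125 a probe with 83.3% G+C, on the strand opposite to the promoter of Akap11, an anchoring protein for protein kinase A, had a mean level of 5.61. The forward probe directly before it, at 81.7% G+C, was detected on 1 array and the other 5 forward probes on none. The eighth span, chr12:73838608-73862621, reverse, had a probe of 78.3% G+C at 4.98, and its difference was -0.24 (adjusted p = 0.585).

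A cluster of 5 spans on chromosome 17 lies over the ribosomal RNA precursor, of which the array has 2 probes named Rn45s there. Of its 20 span probes 19 were tested. All 19 lay below 0, from -0.73 to -0.36 on the log2 scale, and 10 did not overlap between genotypes, while none passed the test (lowest adjusted p = 0.104). Of all tested probes 21% did not overlap with P38α−/− lower. Of the 19, 10 were forward, the strand on which bases are shared with Rn45s, at mean levels from 3.09 to 6.39. The other 9 were reverse and dimmer, at -0.58 to 0.75. Groups did not overlap in 6 of the forward and 4 of the reverse probes. All 19 lie in the same place and are not independent. The chr17:39982023-39983277 probe that shares 57 bases with Rn45s read 6.96, 6.42 and 6.64 on the P38α+/− and 6.32, 5.98 and 6.02 on the P38α−/− arrays. It differed by -0.57 (adjusted p = 0.192) and the 2 Rn45s probes by -0.57 and -0.54. Against the median of all probes the 19 stayed lower when arrays were centred otherwise, except for 2 of them with centring on the E1A spike-in, and 7 turned above 0 with the percentile over all probes and 3 with the spike-in.

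Span probes that shared bases with another probe on the same strand gave nearly the same genotype differences as that probe. In all, 319 span probes shared a run of at least 30 bases with another probe of the array, 211 of them on the same strand, and 26.5% of those 211 were detected on all 6 arrays. Over the 67 same-strand pairs with both probes tested, the genotype differences of the span probe and its partner correlated at r = 0.94 across pairs and 61 had the same sign. Over the 36 opposite-strand pairs, r was 0.47 and 21 had the same sign. Pairs share arrays and bases and are not independent, so these are descriptions.

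The genotype differences of spans followed those of nearby genes on the same strand more closely than those of other neighbours. For probes detected on all 6 arrays, the differences of a span and of the nearest gene probe correlated across spans at r = 0.56 within 10 kb on the same strand (n = 162) and 0.12 on the opposite strand (n = 82). From there to 100 kb r was 0.05 (n = 473) and beyond that 0.04 (n = 288). The spans share the 6 arrays, and the first group includes spans that hold the gene probe.

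The genotypes were compared for the 2604 span probes (16.1%, against 40.4% of other probes) detected on all 3 arrays of at least 1 genotype. Of these, 1666 passed in both genotypes, 882 only through P38α+/− and 56 only through P38α−/−. A probe that passed through a single genotype was selected for its signal there. Counts over the 2604, and the p-values of such probes, carry that choice. The median difference was -0.37 for span probes and -0.16 for all 18547 tested probes, and among probes detected on all 6 arrays -0.21 and -0.10. In those, span probes lay below the other probes in each of 4 bins of brightness, at -0.26, -0.30, -0.18 and -0.12 against -0.22, -0.25, -0.15 and -0.02. The order depended on scaling. Over the probes detected on all 6 arrays, quantile normalization gave medians of 0.11 for span probes and 0.07 for all. The authors' normalized table gave 0.12 and 0.08.

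This offset depended on how arrays were scaled. It was -0.21 between the 2604 span probes and all tested probes, and 0.00 to 2 decimals after quantile normalization and 0.01 in the authors' normalized table. The median of span probes itself turned above 0 there, at 0.06 and 0.07, and with centring on the percentile of all probes (0.11) or the spike-in (0.01), where the medians of all probes were 0.06, 0.06, 0.32 and 0.22. The per-pair offsets of replicates 1, 2 and 3 were -0.38, -0.23 and -0.05. Groups did not overlap, with P38α−/− lower, in 683 span probes (26.2%, against 21% of all tested probes) and with P38α−/− higher in 55 (2.11%, against 6.94%). These shares carry the filter unequally. Only through P38α+/− passed 882 of the 2604 span probes, against 2180 of 15943 other probes, and only through P38α−/− 56 against 279. The part of the filter in these shares was not tested.

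In the test across the whole array (limma, Benjamini-Hochberg adjusted p of at most 0.05 and at least 2-fold), 1 span probe was higher in P38α−/− erythroblasts, where 0.124% of all tested probes were, and 1 was lower, where 0.0377% of all were (0.162% in either direction). The share of span probes called was 0.0384% in each direction, below the background upward and near it downward, and each rests on a single probe. With the replicate number as a block, 0 were higher (background 0.108%) and 7 lower (0.264%), each of which passed the filter only through P38α+/−. With no adjustment, a p of at most 0.05 and 2-fold, 17 span probes were higher (background 1.24%) and 253 lower (7.8%). Without replicate 3 of P38α+/− 37 were called, and without any other single array 0. P-values measure the spread between these mice on 1 array each.

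The probe that rose lies in chr8:13200727-13207714, forward, which contains the lncRNA gene 2810030D12Rik on the same strand and begins beside the divergent gene Grtp1. It read -2.97, -2.98 and -2.98 on the P38α+/− and -1.78, -1.52 and -1.55 on the P38α−/− arrays, a difference of 1.36 ± 0.15 (SE; adjusted p = 0.0418). The 3 P38α−/− values all lay above the 3 P38α+/− values. The other 2 probes of the span did not overlap either, with differences of 1.16 (adjusted p = 0.110) and 0.96 (adjusted p = 0.103), and the array's own 2810030D12Rik probe differed by 1.16 (adjusted p = 0.0817). With the replicate number as a block the adjusted p was 0.0576, and all 3 differences stayed above 0.55 under each scaling tried.

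The probe that fell lies in chr10:66627543-66629331, forward, a span 68578 bases from the nearest probe of Jmjd1c, a histone demethylase family gene. It read -5.23, -5.33 and -5.46 on the P38α+/− and -7.33, -7.60 and -7.78 on the P38α−/− arrays, none of which had it well above background. It was at least 1.84-fold lower (adjusted p = 0.0193, and 0.0462 with the replicate block). This probe entered the test only through the P38α+/− arrays, so both p-values carry that choice. The next probe along the span read -5.05, -4.55 and -5.14 against -6.07, -5.61 and -6.01, a difference of -0.98 (adjusted p = 0.112). That probe too entered the test only through P38α+/−, and the third was detected on no array. Of the 2 Jmjd1c probes the farther differed by 0.18 and the nearer did not pass the detection filter.

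Among probes detected on all 6 arrays, the 8 largest differences upward, 1 a span, ran from 0.75 to 1.44 and the 8 largest downward from -2.28 to -1.63. Apart from the chr8:13200727-13207714 probe, none passed the test. Of the 7 other upward ones 6 did not overlap between genotypes, the exception being chr6:146493273-146493932. Of all tested probes 6.94% did not overlap with P38α−/− higher. These probes were picked for the size of their differences, a choice that favours such separation. In 4 of the 8 downward ones replicate 1 of P38α+/− alone stood over 2 log2 units above the other P38α+/− arrays.

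In chr6:67052066-67119366, reverse, the 3 tested probes that lie side by side all read higher on P38α−/− arrays, and the probe far from them did not. The probe at 67098407 read -5.46, -4.97 and -4.54 on the P38α+/− and -3.79, -3.73 and -3.13 on the P38α−/− arrays, a difference of 1.44 (adjusted p = 0.102). Its neighbours at 67098335 and 67098467 differed by 1.62 (adjusted p = 0.0668, detected on 1 P38α+/− array) and 1.01, and the probe at 67052221 by -0.28. The probe at 67098335 entered the test only through P38α−/− and that at 67052221 only through P38α+/−, so their differences carry that choice. None of the 4 reverse probes passed the test. The 4 forward probes were not tested.

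The chr1:193875525-193978800 reverse probe read 2.16, 1.61 and 1.86 on the P38α+/− and 3.22, 2.62 and 3.06 on the P38α−/− arrays, a difference of 1.09 (adjusted p = 0.104). The other reverse probe of that span differed by -0.66, and the Rcor3 probe inside it, for a corepressor, by -0.22. In chr16:21794415-21815365, which contains the lncRNA gene 1300002E11Rik, 4 of 5 forward probes lay above 0, from -0.27 to 0.91, and the 1300002E11Rik probe differed by 0.60. The forward probe at 0.91 entered the test only through P38α−/−. The chr6:146493273-146493932 probe, in a span 4412 bases from the probe of Ints13, a subunit of the Integrator complex, differed by 0.77 with overlapping groups.

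A pair of reverse probes was detected on every P38α−/− array and on no P38α+/− array. The chr15:61919018-61935580 probe, in a span 97542 bases from the nearest probe of the transcription factor gene Myc, read -6.65, -6.53 and -6.80 on the P38α+/− and -5.06, -5.36 and -5.31 on the P38α−/− arrays. It was at least 1.97-fold higher (adjusted p = 0.0514), and Myc differed by 0.05. The chr9:65368908-65377592 probe read -6.06 and -6.45, with replicate 3 left out as an outlier spot, against -5.04, -4.62 and -4.26, and was at least 2.74-fold higher (adjusted p = 0.0958). Both of these probes entered the test only through P38α−/−, so their p-values carry that choice. The opposite case, detection on all 3 P38α+/− and no P38α−/− array, held for 112 tested probes.

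Downward differences of 2 spans with adjusted p under 0.10 were on chromosomes 1 and 18. The chr1:134867906-134885481 reverse probe lies in a span whose edge is 945 bases from the nearest probe of Mdm4, an inhibitor of p53. It read -2.98, -2.45 and -3.43 on the P38α+/− and -5.05, -4.70 and -4.77 on the P38α−/− arrays, at -1.89 ± 0.27 (SE; adjusted p = 0.0687). All 7 tested reverse probes of that span lay below 0, and 6 did not overlap between genotypes, as did not 21% of all tested probes with P38α−/− lower. Of these 6, the probes at 134881216, 134881291 and 134881412 entered the test only through P38α+/−, a choice that favours lower P38α−/− values. The nearest Mdm4 probe differed by -0.67 (adjusted p = 0.139) and the other Mdm4 probe by -0.85 (adjusted p = 0.167), both by limma.

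On chromosome 18, beside Ube2d2a, a ubiquitin-conjugating enzyme, the chr18:35967933-35986564 forward probe read -1.74, -0.80 and -1.90 against -3.30, -3.48 and -3.49, at -1.95 (adjusted p = 0.0695). In the overlapping span chr18:35970772-35971449 the 2 tested probes were detected on 0 of 3 P38α−/− arrays and were at least 1.64-fold and 2.68-fold lower (adjusted p = 0.0687 and 0.0712). None of the 3 Ube2d2a probes differed by more than 0.22 in size. The chr2:155298877-155303251 probe, 78.3% G+C and detected on 0 of 3 P38α−/− arrays, was at least 1.36-fold lower (adjusted p = 0.0695). Another tested probe of that span differed by 0.13. The probes given here as at least so many fold lower entered the test only through P38α+/−, so their p-values carry that choice.

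The largest downward difference among probes detected on all 6 arrays was in a span that holds Ifi203-ps, a pseudogene of an interferon-inducible family, chr1:175705225-175717250, reverse. It read -2.49, -2.68 and -3.54 on the P38α+/− and -4.54, -4.77 and -6.25 on the P38α−/− arrays, at -2.28 ± 0.51 (SE; adjusted p = 0.107). The genotypes did not overlap. The second tested probe of the span differed by -1.35, but it entered the test only through P38α+/−, so its difference carries that choice. The chr6:40693617-40720167 probe, with a probe of the digestive enzyme gene Mgam inside the span, differed by -1.84 with overlapping groups.

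The remaining 4 downward differences had replicate 1 of P38α+/− far above the rest. The chr11:3538125-3554450 forward probe, opposite in strand to the lncRNA gene Tug1, read -2.14, -4.74 and -4.43 on the P38α+/− and -4.91, -5.53 and -5.76 on the P38α−/− arrays, and differed by -1.63 (adjusted p = 0.245). Of the 8 Tug1 probes in the span, 7 differed by 0.19 or less in size and the eighth by -0.86. The chr15:38639259-38639546, chr15:66682293-66722977 and chr10:126818382-126856582 probes showed the same pattern, at -0.86, -1.52 and -1.89 on replicate 1 of P38α+/− against -5.25 to -4.30 on the other P38α+/− arrays. Adjusted p of these 4 lay between 0.245 and 0.335.

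Few spans lay near genes of the lineage or pathway under study. Within 100 kb of a listed erythroid gene there were 40 span probes, of which 3 were tested, near Gata1 (-0.63), Ank1 and Klf1 (-0.39), and the one near Ank1, a membrane skeleton gene, was detected on 0 of 3 P38α−/− arrays and was at least 1.45-fold lower (adjusted p = 0.212). Within 100 kb of a P38 or JNK pathway gene there were 40, of which 5 were tested. Near Map2k3, a P38 activator, the chr11:60728207-60745369 forward probe read -2.37, -5.55 and -6.01 on the P38α+/− and -5.70, -6.73 and -8.54 on the P38α−/− arrays, so the groups overlapped. The reverse probe there differed by -0.33, the probes near Cdkn1a, a cell cycle inhibitor, by -0.84 and -0.61, and that near Gadd45a by -0.28. Within 100 kb of a neutrophil gene there were 25, of which 3 were tested, near S100a8 at -1.12 (adjusted p = 0.133) and near Cxcr2 at -0.05 and -0.66. None of these 11 passed the test, and S100a8 itself differed by -1.24 (adjusted p = 0.159). All but the Map2k3 reverse probe and the Cxcr2 probe at -0.05 entered the test only through P38α+/−. Their downward differences and p-values carry that choice.

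Differences varied less among probes of a span and strand than among spans. In 180 spans with at least 3 probes detected on all 6 arrays on a strand, the SD of the differences within a span was 0.22 and the SD of the span means was 0.37. All probes had the same sign in 126 of them, higher in 26 and lower in 100. For comparison, 25 of 30 named non-coding genes on the fixed list were on the array and 19 were tested, with a median difference of -0.43. None passed the test, and 4 lay above the median probe. Neat1 differed by 0.25, Malat1 by -0.63 and Gas5 by -0.21.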

How the data were processed

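RNA of 6 sorted erythroblast samples was measured on 1-colour Agilent arrays (design 028005). The spot intensities were deposited by the authors as Agilent Feature Extraction 10.7.3.1 wrote them, background-subtracted within each array and not normalized between arrays. A table of normalized intensities, its steps not named, was also deposited and served as an alternative. Probe positions and sequences are those of the array files (mm9). The members and lists were chosen with earlier results of these data known.

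Control spots were left out, and outlier spots too (121 to 1316 of the 59305 non-control spots an array). The level was log2 processed signal less the 75th percentile of 15150 probes detected on all 6 arrays. Probes detected on all 3 arrays of a genotype were fitted with limma 3.58.1 (R 4.3.3), two-sided, with Benjamini-Hochberg adjustment over 18547 probes. A probe counted as detected when over 0.5 of its used spots were flagged well above background. Bounds used each array's lowest signal well above background. Tested on simulated data for this comparison, in which 200 of 18314 probes were changed, limma made 130 calls, 126 of them correct, and 0 where none was changed. The simulated noise was independent for each probe and array, with spreads shuffled among probes. It lacked the deviations that the real arrays share, so it gives no error rate for these data. Shares were compared by exact permutation of arrays. None (0) of the non-control spots was saturated, 0 columns were unassigned, and the number of arrays limits the precision.

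Replicate numbers were taken to pair the mice only in the replicate block. Same-numbered arrays deviated together from their group means (r = 0.537, 0.310 and 0.423), no other pairing exceeded r = 0.184, and the series' design speaks of pairs. The main limma fit and the permutations used genotype alone, as the paper's unpaired test did, and so left this pairing out. Adjusted p-values given without mention of the block are from that unpaired fit.

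Named probes were every called probe with its span, the 8 brightest spans, the 8 largest rises and 8 largest falls (differences upward and downward) among probes detected on all 6 arrays, up to 4 a direction detected in a single genotype, the 5 brightest spans with both strands, and tested probes within 100 kb of listed erythroid, P38 and JNK, or neutrophil genes. Gene names on other probes were matched to RefSeq (GRCm38.p6), 20778 of 30214 by symbol and 1636 by synonym, and no coordinates were taken from it except that of the promoter window. Some named probes are not reported here.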

Additional observations from a re-analysis of the deposited data

How the results depend on the processing

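The count of span probes called between genotypes was 2 and depended on nearly every choice. It was 0 with quantile normalization, E1A spike-in centring, normexp background, no filter, the authors' normalized table, the slide as a block and the methods' unpaired test, 4 with detection required on all 6 arrays, 86 with array weights (15 higher, 71 lower) and 97 with the 75th percentile over all probes (31 higher, 66 lower). It stayed at 2 with a 1.5-fold limit or with spans counted in place of probes. With the replicate block it was 7, all lower and all well above background on 0 of 3 P38α−/− arrays, among them the chr10:66627543-66629331 probe, against 0.264% of all tested probes. Leaving out an array gave 0 to 37, the 37 without replicate 3 of P38α+/− and 0 without any other. Replicate 3 of P38α−/− was alone on its slide, so the comparison within the first slide is the one without it.

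The median difference of span probes minus that of all probes, -0.21, became 0.00238 with quantile normalization and 0.00595 in the normalized table, and without an array it ran from -0.30 to -0.14. Centring moved the median of all tested probes from -0.16 to 0.32 with all probes' percentile, 0.22 with the spike-in and 0.06 with quantiles. The difference in detection kept its sign, from -17.0 to -1.99 points, and without an array from -14.2 to -4.34 points. The direction of the 22 probes that were called, had the largest differences or were detected in a single genotype held wherever they were fitted. Of the 28 other named probes with a difference (the brightest, those of both-strand spans and those near listed genes), none of which passed the test, 16 changed sign under at least 1 alternative and 12 under none. Of the 834 alternative values of all 50, 38 passed the test where they had not and 25 no longer did. The replicate block, in which the chr8:13200727-13207714 probe missed the threshold at an adjusted p of 0.0576, changed the call of 1 other named probe, at chr18:35970772-35971449 (0.0462). Dim signal is a further limit: 938 of the 2604 tested probes were not detected on all 6 arrays.

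With the 75th percentile over all probes 11 of these probes turned above 0, namely chr19:5801802-5802597 (0.29), chr11:22681800-22707775 (0.43), both strands of chr12:73838608-73862621 (0.24 reverse, 0.00273 forward) and of chr7:108209996-108216032 (0.46 forward, 0.35 reverse), the chr17:39960567-39992817 reverse probe (0.12), and single probes near Klf1 (0.0943), Map2k3 (0.16), Gadd45a (0.20) and Cxcr2 (0.43). With the spike-in 9 did: chr19:5801802-5802597 (0.18), chr11:22681800-22707775 (0.32), chr12:73838608-73862621 reverse (0.13), chr7:108209996-108216032 (0.34 and 0.24), chr17:39960567-39992817 reverse (0.0105) and those near Map2k3 (0.0461), Gadd45a (0.0894) and Cxcr2 (0.32). Quantile normalization turned 6, chr11:22681800-22707775 (0.0248) and those near Gata1 (0.24), Klf1 (0.29), Gadd45a (0.64) and Cxcr2 (0.84 and 0.22). The normalized table turned 8, the same spans (0.0549, 0.38, 0.40, 0.70, and 0.80 and 0.34) and both probes near Cdkn1a (0.0565 and 0.0517). Normexp turned chr11:22681800-22707775 (0.0115) and chr7:108209996-108216032 forward (0.0280), array weights the latter (0.0200), and the slide block 1 probe near Cxcr2 (0.11). Without an array, 5 probes crossed 0: chr14:78924115-78938125 (-0.0653 to 0.36), chr7:108209996-108216032 forward (-0.12 to 0.12), and those near Map2k3 (-0.79 to 0.0152), Cdkn1a (-1.01 to 0.13) and Cxcr2 (-0.36 to 0.12). The cause was not tested.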
